A study of Mus musculus with 14 samples.

Results

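Arg1 is 1 gene of the 26962 gene identifiers listed in any of 14 RNA sequencing libraries of mouse embryonic fibroblasts undergoing reprogramming. Its values were taken from the entry named Arg1 (ENSMUSG00000019987) in each library's table, and all 14 libraries list it. The gene was picked because its level was lower in cells given Cdk9-DN than in cells given a control vector on every day sampled. That difference is therefore described here without a test. Other measures were tested, although the tested changes of Arg1 between days share libraries with that difference.

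The fibroblasts were of strain OG2/129SV. Every group, the controls included, had been transduced with Oct4, Sox2, Klf4 and c-Myc. No group went without these reprogramming factors. The cells were given, besides these, either the control vector or the Cdk9-DN construct, whose name stands for a dominant-negative Cdk9, and they grew in embryonic stem cell medium containing LIF. There were 2 libraries per vector at days 4, 5 and 10 after infection, and 1 per vector at day 3. Whether the libraries of a group came from separate cultures is not given in the labels. The p-values therefore reflect the spread among these libraries alone, which may be technical. Cdk9 itself is listed in 0 of the 14 libraries, so the targeted gene was not checked here.

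Arginase 1, the product of Arg1, splits arginine into ornithine and urea, the last step of the urea cycle in the liver. Outside the liver the gene is best known in macrophages, where it is induced by cytokines such as interleukin 4 and serves as a marker of alternative activation. Ornithine made by arginase can feed the synthesis of polyamines, through ornithine decarboxylase, and of proline. Cdk9, as part of P-TEFb, phosphorylates the transcription machinery so that paused polymerase can elongate.

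In the coordinates of the deposited tables (mm9), Arg1 spans chromosome 10 from 24635013 to 24647276. A later annotation, GENCODE M21, has it as a protein-coding gene on the minus strand with 3 transcripts and 8 exons in the longest coding one. Levels are in FPKM, that is, fragments corrected for the length of the transcript and the depth of the library, and each has a deposited lower and upper bound. The bounds lie 2 standard deviations to either side of the FPKM, so they imply a number of fragments behind each value. For Arg1 this number was within 0.01 of a whole number in 9 of the 14 libraries. The others were all libraries of day 10 and control library 2 of day 5, at 0.0164 to 0.457 from a whole number. Their fragments are given rounded. Reading the bounds as fragments assumes that they cover counting error alone, and it says nothing of differences between cultures.

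Arg1 was barely detected through day 5 and high at day 10 with both vectors. At day 3 the control library had 0.301 FPKM (bounds 0.0318 to 0.570) and the Cdk9-DN library 0.268 FPKM (bounds 0.0283 to 0.508), each from 5 implied fragments. The order at day 3 thus rests on equal fragment numbers in libraries of different depth.

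At day 4 the control libraries had 0.639 and 0.401 FPKM, from 9 and 7 implied fragments. The Cdk9-DN libraries had 0.272 and 0.176 FPKM, from 4 and 3 fragments, and the lower bound of both was 0. Both Cdk9-DN values lay below both control values, while the deposited bounds of the vectors overlapped. The group means were 0.520 ± 0.168 (SD, n = 2) FPKM in control and 0.224 ± 0.0680 (SD, n = 2) FPKM in Cdk9-DN cells.

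At day 5 the control libraries had 0.745 and 0.787 FPKM, from 13 and 10 implied fragments. The Cdk9-DN libraries had 0.607 and 0.443 FPKM, from 9 and 8 fragments. The values again did not overlap and the bounds did: the highest Cdk9-DN upper bound was 1.01 FPKM and the lowest control lower bound 0.279 FPKM. The means were 0.766 ± 0.0299 (SD, n = 2) in control and 0.525 ± 0.116 (SD, n = 2) in Cdk9-DN cells.

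At day 10 the control libraries had 42.7 FPKM (bounds 39.4 to 45.9) and 37.6 FPKM (bounds 34.7 to 40.6), from 692 and 640 implied fragments. The Cdk9-DN libraries had 10.2 FPKM (bounds 8.71 to 11.7) and 10.6 FPKM (bounds 9.07 to 12.1), from 181 and 194 fragments. Here neither the values nor the bounds of the vectors overlapped. The means were 40.2 ± 3.57 (SD, n = 2) in control and 10.4 ± 0.258 (SD, n = 2) in Cdk9-DN cells. In these bulk libraries, a smaller share of Arg1-expressing cells and less Arg1 RNA in each cannot be told apart.

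**Figure D1:**
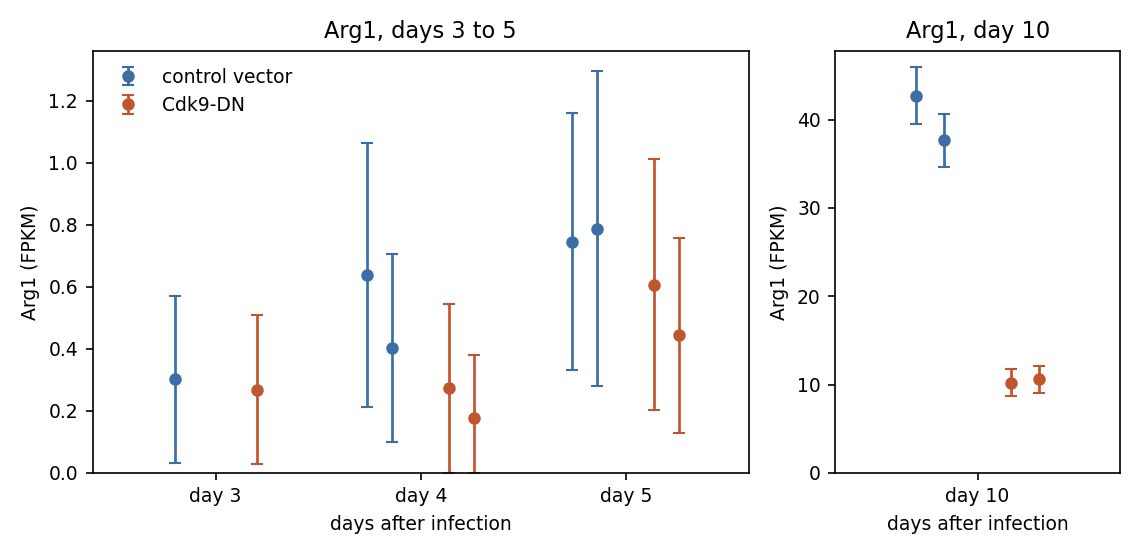
FPKM of Arg1 in each library (vertical axis) by day after infection (horizontal axis), with the deposited lower and upper bounds as bars and the vectors in separate colours. The 10 libraries of days 3 to 5 lie between 0.176 and 0.787 FPKM with overlapping bounds, and at day 10 the control libraries (42.7 and 37.6) stand clear of the Cdk9-DN libraries (10.2 and 10.6).

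The control mean was 1.12 times the Cdk9-DN value at day 3, 2.32 times at day 4, 1.46 times at day 5 and 3.86 times at day 10. On the log2(FPKM + 1) scale, which understates changes of low values, the Cdk9-DN minus control differences were −0.04, −0.31, −0.21 and −1.85. The description "lower with Cdk9-DN throughout" therefore held for the order of the values on all 4 days, but at days 3 to 5 it rested on 3 to 13 implied fragments per library. Summed over the libraries of a group, the fragments were 5 against 5 at day 3, 16 in control against 7 in Cdk9-DN cells at day 4, 23 against 17 at day 5 and 1332 against 375 at day 10. Among genes with 1 FPKM or more in 2 or more of the 12 libraries from day 4 onwards, 3491 were listed in all 12. Of these 3491, 60 (1.72%) had both Cdk9-DN libraries below both control libraries on each of days 4, 5 and 10. Both libraries of day 3 also list 3378 of the 3491 genes. Of these 3378, 40 (1.18%) had in addition the lower value in Cdk9-DN cells at day 3. Without this limit on the level, 18914 genes were listed in all 14 libraries. Arg1 met the limit through its 4 libraries of day 10 alone. Since Arg1 was chosen for this order, nothing is read from these shares.

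From the highest mean to the lowest, the 8 groups ran control day 10, Cdk9-DN day 10, control day 5, Cdk9-DN day 5, control day 4, control day 3, Cdk9-DN day 3 and Cdk9-DN day 4. The ranges of Cdk9-DN day 5 and control day 4 overlapped, and the single Cdk9-DN value of day 3 fell inside the Cdk9-DN range of day 4. Only the day 10 groups were separated from all others by more than their bounds. Within the libraries, Arg1 ranked between 5293 and 6738 from the top at days 3 to 5. At day 10 it ranked 1198 of 23483 and 1234 of 23391 listed genes in the control libraries. In the Cdk9-DN libraries of day 10 it ranked 2621 of 23267 and 2561 of 23236.

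The gene was chosen by comparing the vectors, and the change between days within 1 vector was tested. The day 10 libraries enter both, so this test is not independent of the choice. In control cells Arg1 rose from day 5 to day 10 by 4.54 ± 0.108 (SE) on the log2(FPKM + 1) scale (limma with Benjamini-Hochberg adjustment over all genes, adjusted p = 2.16e-07). The mean FPKM was 52.4 times higher at day 10 than at day 5. In Cdk9-DN cells it rose over the same days by 2.91 ± 0.108 (SE) (limma, adjusted p = 2.94e-06), and the mean FPKM was 19.8 times higher. The gene thus rose strongly with either vector, in all libraries of day 10.

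Over all genes tested, 49.8% were called between days 5 and 10 in control cells and 27.3% were called higher. With Cdk9-DN 34.9% were called and 22.5% were called higher. Among all genes ordered by the size of this change, Arg1 stood 35 of 5798 from the top in control cells and 101 of 5783 in Cdk9-DN cells. Arg1 passed the filter of at least 1 FPKM in at least 2 libraries through the 4 libraries of day 10 alone, so a rise to day 10 was in part required for it to be tested. From day 4 to day 10 the changes were 4.76 in control cells (limma, adjusted p = 2.27e-07) and 3.22 in Cdk9-DN cells (limma, adjusted p = 1.59e-06), each with an SE of 0.108. The shares of all genes called in these comparisons were 50% and 38%, with 28.2% and 24.5% called higher. Each vector's comparisons with day 10 share its day 10 libraries.

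Between days 4 and 5 no change passed the test. The change was 0.22 ± 0.108 (SE) in control cells (limma, adjusted p = 0.320, unadjusted p = 0.0786), where 5.02% of all genes were called. It was 0.32 ± 0.108 (SE) in Cdk9-DN cells (limma, adjusted p = 0.186, unadjusted p = 0.0213), where 3.28% were called. In FPKM the means were 1.47 and 2.35 times higher at day 5 than at day 4. These values rest on 3 to 13 implied fragments per library.

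The sizes of the 2 rises can be set beside those of other genes. A further 90 genes were called higher in control cells between days 5 and 10 with a change of at least 3 on the log2(FPKM + 1) scale, a threshold chosen after the values were seen. Their median change was 3.76 in control and 2.50 in Cdk9-DN cells, and 84 of the 90 had the smaller change in Cdk9-DN cells. Over all 5485 genes with both changes, the medians were 0.05 and 0.07. At day 10 these 90 genes had a median Cdk9-DN minus control difference of −1.34, with a range of −7.57 to 0.72. Of the 90, 82 were below 0 and 28 were further below it than Arg1 at −1.85. The control change chose these genes and is also 1 side of the comparison of changes. The control libraries of day 10 enter both the choice of these genes and their difference, so all these counts are a description. Arg1 lay within the range of these genes in both measures.

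**Figure D2:**
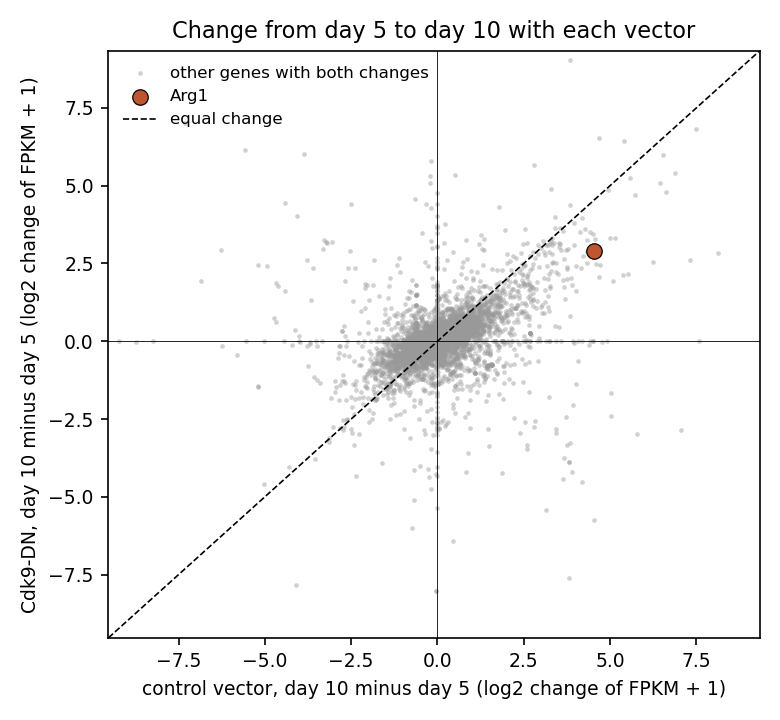
Change from day 5 to day 10 on the log2(FPKM + 1) scale in control cells (horizontal axis) and in Cdk9-DN cells (vertical axis) for 5485 genes, 1 point per gene, with Arg1 marked. Arg1 lies far to the right at 4.54 and below the diagonal of equal change at 2.91. There 84 of the 90 other genes called higher with a control change of at least 3 also lie. These were chosen by the value on the horizontal axis, so their count is a description.

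The genes whose pattern was most like that of Arg1 were ranked by Pearson's r of log2(FPKM + 1) over the 14 libraries. The ranking held 822 genes listed in all of them with a mean of at least 5 FPKM, with unnamed gene models passed over. Day 10 differs from the earlier days in these values, and the points share libraries and days, so r is a description of that split. The gap between the vectors in Arg1 at day 10 also enters r. In genes chosen by r, the order of the vectors at day 10 is thus in part fixed by the choice. The median r was −0.02, and 82 genes had r above 0.9. The 10 highest were Asprv1 (r = 0.990), Cldn4 (0.990), Cmtm6 (0.989), Perp (0.984), Rpl13-ps1 (0.983), Npy (0.982), Rpl23a-ps3 (0.979), Rpl10a-ps1 (0.978), Rps15a-ps8 (0.976) and Dact2 (0.972). The 4 entries of the Rpl and Rps kind are pseudogenes of ribosomal protein genes, and their reads cannot be told apart with certainty from those of the parent genes. By Spearman's rank correlation 1 of these 10 was among the first 10, and by Pearson's r without day 3 there were 6.

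Cldn4, a claudin of epithelial tight junctions, reached 102 and 98.0 FPKM with the control vector at day 10, against 29.0 and 27.3 FPKM with Cdk9-DN. Its control mean was 3.55 times the Cdk9-DN mean, beside 3.86 for Arg1. Asprv1, an aspartic protease of the epidermis, reached 25.7 and 22.7 FPKM with the control vector, against 11.3 and 10.7 FPKM with Cdk9-DN. Both genes were, like Arg1, near 0 through day 5 and higher in control cells at day 10. The choice by r in part fixed this order of the vectors.

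Cmtm6 and Perp started from higher levels than Arg1, and Npy from near 0. Cmtm6, a membrane protein, was at 9.96 to 11.9 FPKM at days 3 to 5, and at day 10 it had 24.3 and 26.6 FPKM with the control vector, against 19.3 and 19.0 FPKM with Cdk9-DN. Perp, a protein of desmosomes, had 254 and 253 FPKM with the control vector, against 172 and 176 FPKM with Cdk9-DN at day 10. Npy, which encodes neuropeptide Y, was at most 0.584 FPKM before day 10 and then had 134 and 123 FPKM with the control vector, against 53.2 and 51.1 FPKM with Cdk9-DN. Their control to Cdk9-DN ratios at day 10 were 1.33, 1.46 and 2.46, so genes nearly equal in r differed in how far apart the vectors were.

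The 5 genes least like Arg1 were Fjx1 (r = −0.987), Ctsk (−0.983), Fzd1 (−0.983), Gas1 (−0.974) and Ppp1r15b (−0.972). Fjx1, a Golgi and secreted protein related to four-jointed of the fly, had 0.697 and 0.797 FPKM with the control vector, against 2.60 and 2.21 FPKM with Cdk9-DN at day 10. Its control mean was 0.311 times the Cdk9-DN mean. For Ctsk, the protease cathepsin K, that ratio was 0.396, and for the Wnt receptor gene Fzd1 it was 0.618. In all 5 genes the day 10 values were below the earlier ones, and lower in control than in Cdk9-DN cells. Both orders were in part fixed by the choice of these genes by r.

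**Figure D3:**
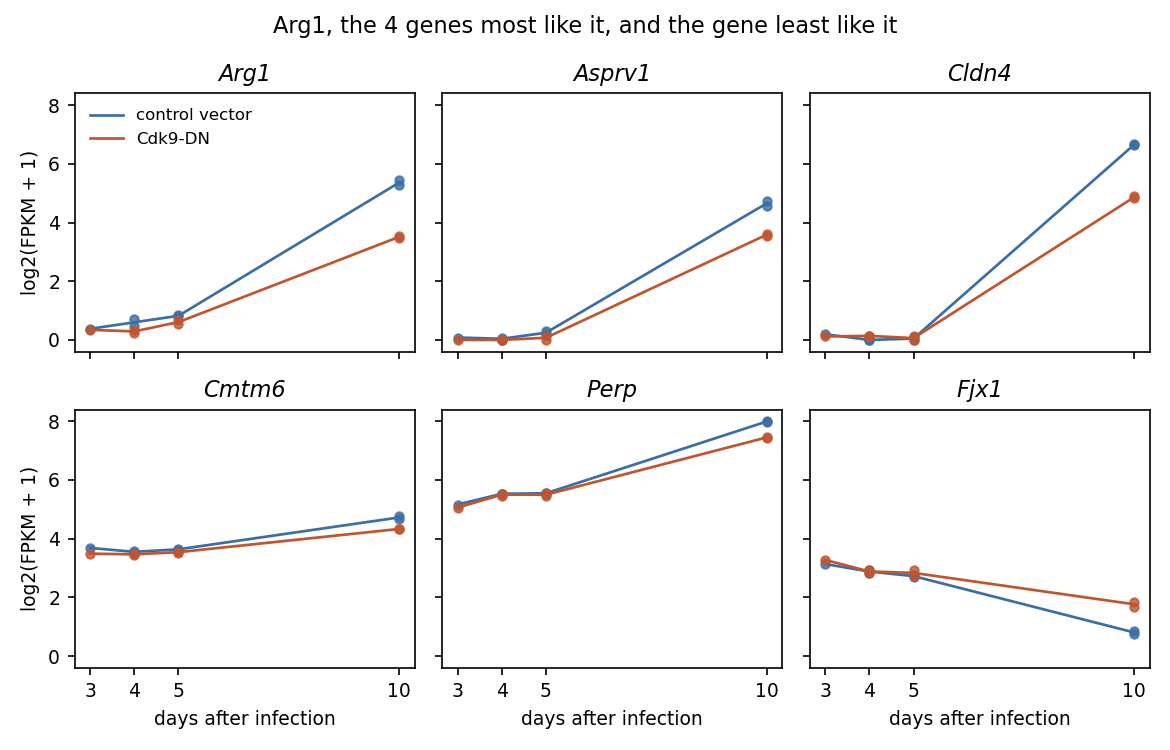
log2(FPKM + 1) in each library (vertical axis) by day after infection (horizontal axis) for Arg1, the 4 genes most like it (Asprv1, Cldn4, Cmtm6 and Perp) and the least like gene, Fjx1, with 1 point per library and the vectors in separate colours. The 4 genes are highest at day 10, with the control libraries above the Cdk9-DN libraries, and Fjx1 is lowest at day 10, with the vectors in the opposite order. These genes were chosen by r with Arg1, which in part fixed these orders.

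Arg1 was then set beside the other genes of its pathway and of its known regulation. There were 114 such symbols in 6 lists. Of these, 56 were listed in any library and 28 passed the filter. At day 10, 23 could be tested for the Cdk9-DN effect by limma: 7 were called higher with Cdk9-DN, 9 lower, and 7 did not pass. Over all genes 28.9% were called at day 10, 14.5% higher and 14.4% lower. These shares also apply to the counts of single lists below. With so few tested genes per list, those counts are a description. The median difference of the 23 genes was −0.14, against 0 over all genes. The count of 7 became 4 without control library 1 of day 10, 3 without control library 2 and 4 without Cdk9-DN library 1. With only the 4 libraries of day 10 fitted, 1 gene was called higher and 5 lower. For 11 of the 23 genes a group of day 10 lists the gene in 1 library only. That library has no spread of its own, and limma takes it to vary like the other groups of the same gene, moderated by genes of like level. Of the 12 genes with 2 libraries per vector, 3 were called higher and 6 lower, where 14.6% and 13.8% of all such genes were. The calls that rest on 1 library in a group were those of Gamt, Pycrl, Amd1 and Slc25a15 (higher) and of Slc3a2, Fosl2 and Alox15 (lower).

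At day 4, 0 of 21 listed genes were called by limma (2 at an unadjusted p under 0.05), where 0.0336% of all genes were. At day 5, 0 of 20 were called (2 at an unadjusted p under 0.05), where 0.169% of all genes were. Averaged over the 3 days, 2 of 20 were called higher and 4 lower, where 4.23% of all genes were called higher and 6.72% lower. The 6 were Amd2 and Tgfbr2, which were higher, and Alox15, Adora2b, Slc6a14 and Fosl2, which were lower. Tgfbr2, Alox15 and Fosl2 have a group with 1 library, and Amd2, Adora2b and Slc6a14 have 2 in every group. The averaged call of Fosl2 (limma, adjusted p = 0.0451) ended with the filter of 6 libraries, either other scaling and the replicate block (limma, adjusted p of at most 0.0910). Control library 2 of day 4 and control library 1 of day 10 do not list Fosl2, and its difference stayed at −0.14 without either. The call ended in each of the 10 refits that left out 1 library and gave a value, these included. That of Tgfbr2 (limma, adjusted p = 0.0347) ended in 9 of 11 such refits, with adjusted p from 0.0312 to 0.0907 over all alternatives. That of Amd2 (limma, adjusted p = 0.0173) ended in 3 of 12, without control library 2 of day 4, Cdk9-DN library 1 of day 5 or Cdk9-DN library 2 of day 10 (limma, adjusted p of at most 0.0521). The calls of Adora2b, Alox15 and Slc6a14 held in each refit with 1 library left out that gave a value, and that of Slc6a14 was lost with a pseudocount of 0.25 (limma, adjusted p = 0.05002). A gene that 1 library of a group lists gave no value without that library. For 21 listed genes the effect at day 10 could be set against that at day 4. That difference was called positive for 3 and negative for 7, where 7.95% and 7.79% of all genes were called (15.7% in all).

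Of 23 other enzyme genes around arginine, 10 are listed in any library, and 7 of these stayed below 1 FPKM in every library that lists them. Genes that no library lists have no value here. Arg2, the mitochondrial arginase, was listed at 0 in all 12 libraries that list it. Of the other urea cycle genes, Otc (ornithine transcarbamylase) reached at most 0.0614 FPKM and Cps1 (carbamoyl phosphate synthetase) 0.0646 FPKM. Ass1 and Asl, whose products make arginine, are listed in 0 libraries. Arg1 was thus the only urea cycle gene among those listed that exceeded 1 FPKM.

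Of the 3 enzyme genes tested at day 10, 2 were called higher with Cdk9-DN and 0 lower. The shares over all genes were 14.5% and 14.4%. Oat, the aminotransferase that takes ornithine towards proline, had 46.7 and 48.5 FPKM in control cells and 43.0 FPKM in the 1 Cdk9-DN library that lists it, and did not pass (limma, adjusted p = 0.152). The called genes were Pycrl and, named after its values were seen, Gamt, both with a group of 1 library at day 10. Gamt, the methyltransferase that makes creatine, had 3.55 and 3.67 FPKM in control cells and 10.6 FPKM in 1 Cdk9-DN library, a difference of 1.34 ± 0.194 (SE) (limma, adjusted p = 0.0251) whose SE takes the spread from the other groups. The call of Gamt ended without a filter on low values (limma, adjusted p = 0.109). Pycrl, a reductase of proline synthesis, had 19.8 FPKM in 1 control library and 28.3 FPKM in 1 Cdk9-DN library (limma, adjusted p = 0.0207). Neither of these groups has a spread of its own, so for Pycrl this p takes its spread from the 4 libraries of day 4 and from what limma shares across genes.

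Of 3 polyamine genes tested, 2 were called higher with Cdk9-DN and 0 lower, where 14.5% and 14.4% of all genes were. Amd2, a copy of the decarboxylase gene that supplies aminopropyl groups for spermidine and spermine, had 8.02 and 7.86 FPKM with the control vector, against 11.8 and 12.1 FPKM with Cdk9-DN at day 10. The difference was 0.54 ± 0.0673 (SE) (limma, adjusted p = 0.00151). Amd1, listed in 1 control library of day 10, differed by 0.60 with the spread taken in part from other groups (limma, adjusted p = 0.0138), a call that ended without either Cdk9-DN library of day 10 (limma, adjusted p = 0.0534 and 0.0566, from 0.00890 upwards over all alternatives). Amd1 and Amd2 are near-identical copies, so the split of reads between them is uncertain. Odc1, which encodes ornithine decarboxylase, is listed in 4 libraries and could not be tested. It had 59.9 FPKM in 1 control library of day 10 and 91.1 to 103 FPKM in the 3 earlier libraries that list it.

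Of 3 transporter genes tested, 1 was called higher and 2 lower, where 14.5% and 14.4% of all genes were. Slc6a14, a carrier of neutral and basic amino acids including arginine, was at most 0.0218 FPKM before day 10. It then had 3.23 and 3.47 FPKM with the control vector, against 1.38 and 1.20 FPKM with Cdk9-DN, a difference of −0.93 ± 0.0704 (SE) (limma, adjusted p = 1.98e-04). Like Arg1 it passed the filter only through day 10, and its Cdk9-DN effect was in the same direction. Slc3a2, the heavy chain shared by several amino acid carriers, had 74.5 FPKM in 1 control library and 56.1 and 55.4 FPKM in Cdk9-DN cells (difference −0.41, limma, adjusted p = 0.00659, with no spread in the control group of day 10 and 0 Cdk9-DN libraries listing it at days 4 and 5). Slc25a15, the mitochondrial ornithine carrier, listed in 1 Cdk9-DN library of day 10, was higher by 0.66 with the spread taken from other libraries (limma, adjusted p = 0.0210). The call ended without either control library of day 10 (limma, adjusted p = 0.0789 and 0.0753, from 0.0183 upwards over all alternatives) and without a filter (limma, adjusted p = 0.0568).

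**Figure D4:**
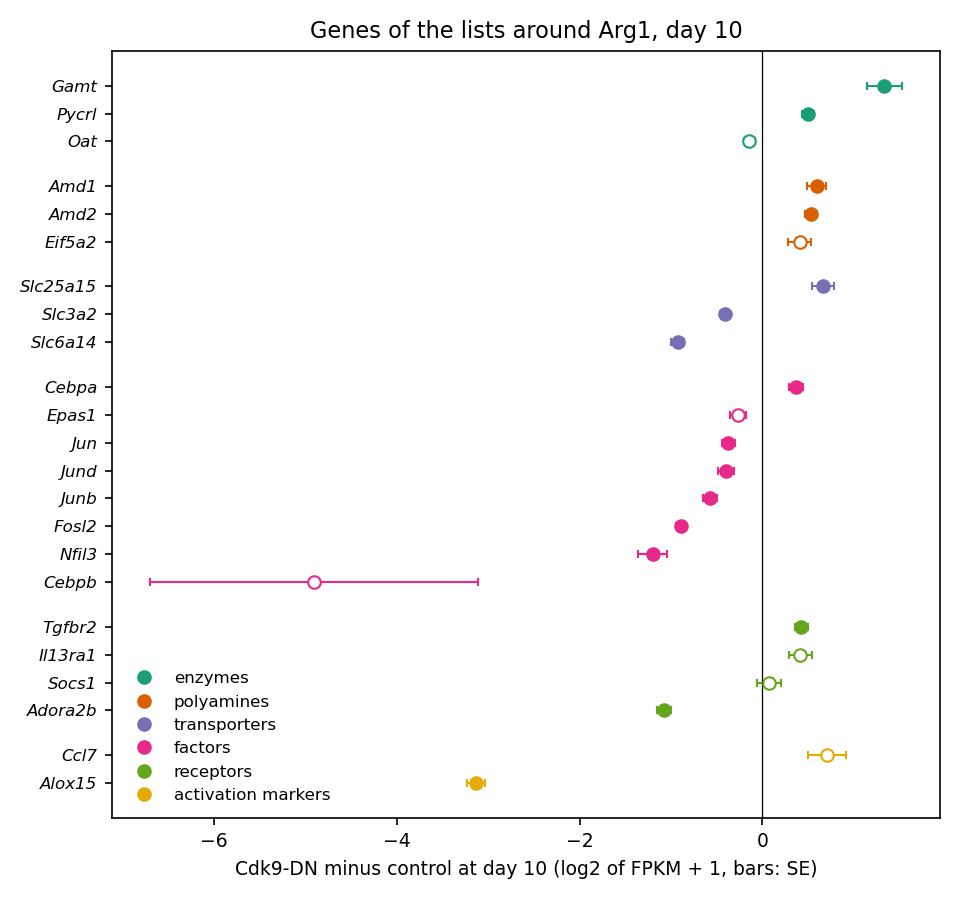
Cdk9-DN minus control difference at day 10 on the log2(FPKM + 1) scale (horizontal axis) with its SE for the listed genes tested, grouped by list on the vertical axis, with filled points for an adjusted p under 0.05. Of the 23 genes other than Arg1, 7 filled points lie right of 0 and 9 left of it, with Alox15 at −3.14 the lowest of the called genes.

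Among the transcription factors known to act on Arg1 in macrophages, 8 could be tested, of which 1 was called higher and 5 lower with Cdk9-DN. The shares of all genes called at day 10 were 14.5% higher and 14.4% lower. The list covers the AP-1 and C/EBP families and other factors. Fosl2, an AP-1 subunit, had 28.0 FPKM in the 1 control library of day 10 that lists it and 14.8 and 14.4 FPKM in Cdk9-DN cells. The difference was −0.89 ± 0.0517 (SE) (limma, adjusted p = 4.05e-04), with no spread of its own in the control group. Junb, another AP-1 subunit, had 96.9 and 89.3 FPKM with the control vector, against 63.5 and 61.0 FPKM with Cdk9-DN (difference −0.57, limma, adjusted p = 0.00351). In control cells Fosl2 and Junb were higher at day 10 than at day 5, by 0.90 and 0.87 on the log2 scale (limma, adjusted p = 9.93e-05 and 5.12e-04), Fosl2 with 1 control library at day 10 and Junb with 1 at day 5. Unlike Arg1, both were also high at day 3, where the control and Cdk9-DN libraries had 45.0 and 48.1 FPKM of Fosl2 and 93.2 and 108 FPKM of Junb.

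The remaining factors are named after their values were seen. Nfil3, a bZIP repressor, had 3.31 and 3.60 FPKM with the control vector, against 1.11 and 0.784 FPKM with Cdk9-DN at day 10 (difference −1.20, limma, adjusted p = 0.00341). Jun and Jund were also lower, with differences of −0.37 and −0.40 (limma, adjusted p = 0.00856 and 0.0173). Cebpa was higher by 0.37 (limma, adjusted p = 0.0132). The call of Jund ended without control library 1 or Cdk9-DN library 2 of day 10 (limma, adjusted p = 0.0914 and 0.0852), and also without a filter, with quantile normalization and with only the day 10 libraries fitted (limma, adjusted p of at most 0.0825). That of Cebpa ended without control library 2 or Cdk9-DN library 2 (limma, adjusted p = 0.0597 and 0.0675). Over all alternatives the adjusted p of limma ran from 0.0127 to 0.0914 for Jund, from 0.00894 to 0.0867 for Cebpa and from 0.00574 to 0.0849 for Jun, the highest of Cebpa and Jun with only the day 10 libraries fitted. Cebpb did not pass (limma, adjusted p = 0.0821): it is listed at 21.6 and 39.0 FPKM in control libraries of day 10 and at 0 in both Cdk9-DN libraries, but also at 28.1 and 0 FPKM in the control libraries of day 4.

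Of 4 genes for receptors and feedback inhibitors upstream of Arg1 that could be tested, 1 was called higher and 1 lower. Among all genes these shares were 14.5% and 14.4%. Adora2b, an adenosine receptor, had 7.12 and 7.82 FPKM with the control vector, against 3.18 and 2.86 FPKM with Cdk9-DN at day 10, a difference of −1.08 ± 0.0769 (SE) (limma, adjusted p = 1.57e-04). Unlike Arg1 it was expressed before day 10, at 3.91 to 5.58 FPKM. Tgfbr2, a receptor of TGF-beta, had 8.76 and 8.38 FPKM with the control vector, against 12.1 and 11.7 FPKM with Cdk9-DN (difference 0.43, limma, adjusted p = 0.00685), a call that ended with only the day 10 libraries fitted (limma, adjusted p = 0.0617). Socs1, an inhibitor of cytokine signalling, had 1.90 and 2.47 FPKM with the control vector, against 2.33 and 2.34 FPKM with Cdk9-DN (limma, adjusted p = 0.751).

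Of the 19 markers of alternative macrophage activation, 12 were listed, 10 stayed below 1 FPKM in every library that lists them, and 2 were tested. Alox15, a lipoxygenase, was at most 0.0392 FPKM before day 10. At day 10 it had 33.1 FPKM in the 1 control library that lists it and 3.09 and 2.68 FPKM in Cdk9-DN cells, a difference of −3.14 ± 0.0978 (SE) (limma, adjusted p = 1.51e-05) with no spread of its own in the control group. Its values, like those of Arg1, were high only at day 10 and lower in both Cdk9-DN libraries than in the control, and like Arg1 it passed the filter only through day 10. Ccl7, a chemokine, had 15.5 FPKM in 1 control library and 22.1 and 30.8 FPKM in Cdk9-DN cells, and did not pass (limma, adjusted p = 0.0744).

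Markers of the cell types in which Arg1 is best known were measured beside it. Of 22 macrophage and leukocyte markers, 16 were listed, and the 10 listed in all libraries summed to 13.4 FPKM with the control vector, against 16.4 FPKM in Cdk9-DN cells at day 3. At day 10 the sum was 0.308 to 0.473 FPKM with the control vector, against 0.118 to 0.155 FPKM with Cdk9-DN. Over these 10 markers the sum was lowest on the day on which Arg1 was highest. Cd68, which the sum leaves out, was higher at day 10 than at day 3, so the sum does not stand for the list. Of the 16 listed, 10 stayed below 1 FPKM in every library and 3 of them were at 0. Lyz2, the macrophage lysozyme, went from 7.42 and 9.21 FPKM at day 3 to at most 0.133 FPKM at day 10. Cd68, a lysosomal protein of macrophages that is not in the sum because some libraries do not list it, had 42.0 and 39.0 FPKM with the control vector, against 8.70 FPKM in the 1 listed Cdk9-DN library at day 10, and 5.46 FPKM at day 3.

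Of 18 hepatocyte markers, 16 were listed, 14 stayed below 1 FPKM everywhere and 6 were at 0. The 2 that passed the filter are not in the sum that follows, so that sum does not stand for the list. Neither could be tested for the Cdk9-DN effect at day 10. From day 4 to day 10 in control cells 1 of them could be tested, with a log2 change of 1.02 that was not called (limma). The 10 listed in all libraries summed to 0.164 to 0.309 FPKM with the control vector, against 0.335 to 0.426 FPKM with Cdk9-DN at day 10, and Alb, the serum albumin gene, never exceeded 0.148 FPKM. Epithelial markers moved with Arg1: 3 of 11 were listed in all libraries, and they summed to 262 to 271 FPKM with the control vector, against 58.5 to 65.2 FPKM with Cdk9-DN at day 10. Before day 10 their sum was 2.43 to 8.27 FPKM with either vector. Cldn4 is among these markers. The control to Cdk9-DN ratio of the epithelial sum was 4.30 at day 10. The 4 pluripotency markers listed in all libraries summed to 45.3 to 53.2 FPKM with the control vector, against 19.6 to 20.0 FPKM with Cdk9-DN, a ratio of 2.49. The 2 fibroblast markers listed in all libraries were lower in control cells, at 3.85 to 4.42 FPKM against 13.3 to 15.0 FPKM. Of the 5 fibroblast markers tested at day 10, 2 were called higher with Cdk9-DN, 1 lower and 2 did not pass (limma). Among all genes 14.5% were called higher and 14.4% lower. The median difference of the 5 markers was 0.08, so the summed pair does not stand for the list. The part of these cell types in the Arg1 difference was not tested.

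Around the gene, 9 other genes are listed within 500 kb, and 4 of them had at least 1 FPKM in at least 2 libraries. Ctgf, a matricellular protein gene 317 kb away (24315247 to 24318489), had 376 FPKM in the 1 control library of day 10 that lists it and 196 and 193 FPKM in Cdk9-DN cells. That difference was −0.95 ± 0.0466 (SE) (limma, adjusted p = 8.44e-05), and the control group had no spread of its own. Ctgf was as high at day 3 (395 FPKM in the control library), where Arg1 was near its lowest. Enpp3, an ectonucleotidase gene 79.0 kb away (24493619 to 24556001), is listed in 8 libraries. It had 0.499 to 1.42 FPKM through day 5 and 24.9 FPKM in 1 Cdk9-DN library of day 10, the only one of that day that lists it, so its vectors could not be compared there. The other neighbours, the gene model Gm15272 and an entry annotated as 7SK, stayed at or below 3.63 FPKM. Of the 3 neighbours tested at day 10, Ctgf was called lower and these 2 did not pass (limma). Among all genes 14.4% were called lower. The median difference of the 3 was 0.75, opposite in sign to that of Ctgf.

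As to the libraries as a whole, the bounds implied 8.79 to 13.0 M fragments per library, 23236 to 24385 genes were listed in each, and 4947 to 5292 of them had at least 1 FPKM. The 10 highest genes made up 33.4% to 76.1% of the summed FPKM, with the highest share in control library 2 of day 5. In that library Arg1 had 0.787 FPKM, next to 0.745 FPKM in the other control library of that day. Median-of-ratios scaling moved single libraries by −0.06 to 0.12 on the log2 scale, with the day 10 libraries highest. With it the rises of Arg1 from day 5 to day 10 were 4.44 and 2.80 in place of 4.54 and 2.91. The genes called in Cdk9-DN cells between these days split into 1304 higher and 715 lower as deposited, and 1017 and 956 with that scaling.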

How the data were processed

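The 14 libraries of reprogramming mouse fibroblasts have 1 table each of FPKM per gene with lower and upper bounds, computed and deposited by the authors. The submitters' processing notes name CASAVA 1.8.2, TopHat2 2.0.10 and Cufflinks 2.2.1, and the builds mm9 and NCBIM37. The read counts themselves were not analysed. Entries under 1 identifier were summed. The 1 entry marked as failed, of Triap1, was dropped. Where a library does not list a gene, the value was treated as missing and not as 0.

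Implied fragments were the square of the FPKM over its standard deviation, taken as the upper bound minus the FPKM, divided by 2. Depth was derived from these over protein-coding genes.

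The 12 libraries of days 4, 5 and 10 (6 groups) entered a limma fit (limma 3.58.1, R 4.3.3) of log2(FPKM + 1) whose variance followed an intensity trend, for genes with at least 1 FPKM in at least 2 libraries and at least 2 residual degrees of freedom. The 2 single libraries of day 3 stayed out. Genes were called at a two-sided Benjamini-Hochberg adjusted p under 0.05 over all genes of a contrast. The fit was tested on simulated data. Python 3.11.15 with pandas 2.3.3 read the tables. Alternatives were another pseudocount, filters, scalings, sets of libraries, a replicate block and leaving out each library, and, added after seeing the data, only genes with 2 libraries in every group compared.

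Arg1, the gene lists and the tests were chosen with earlier results of these data known. Named genes were, per list, up to 6 called for the averaged Cdk9-DN effect, filled up to 2 by the tested members with the highest mean. To these came the 10 genes most like Arg1 and the 5 least like it, and neighbours within 500 kb with at least 1 FPKM in at least 2 libraries. A small number of listed genes are not reported here and were left out of lists and rankings. Other genes are named after their values were seen.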

Additional observations from a re-analysis of the deposited data

Results flagged for a closer look

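For 10 listed genes the Cdk9-DN effect at day 10 differed from that at day 4, by limma's test of that difference on the log2(FPKM + 1) scale with Benjamini-Hochberg adjustment. Over all genes 15.7% were called in this test, 7.95% higher and 7.79% lower. The difference between days for Arg1 itself was −1.54 and was not tested, since the gene was chosen for its Cdk9-DN effect.

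Alox15 stood out in size: its Cdk9-DN effect was 0.03 at day 4 and −3.14 at day 10, a difference of −3.16 (adjusted p = 6.94e-05). For Nfil3 the difference was −1.42 (adjusted p = 0.0161), for Fosl2 −1.06 (adjusted p = 0.00132), for Adora2b −1.00 (adjusted p = 0.00166) and for Slc6a14 −0.93 (adjusted p = 0.00160). Alox15 and Slc6a14 passed the filter only through day 10. Slc6a14 is listed at 0 FPKM in all 4 libraries of day 4 and Alox15 in 3 of them, so the difference between days restates the day 10 effect, exactly for Slc6a14 and nearly for Alox15. The difference was smaller for Junb, at −0.67 (adjusted p = 0.0121), and Jun, at −0.41 (adjusted p = 0.0346).

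The difference was positive for 3 genes. It was 0.53 for Pycrl (adjusted p = 0.0420), 0.49 for Cebpa (adjusted p = 0.0262) and 0.49 for Amd2 (adjusted p = 0.0151). Alox15, Fosl2, Nfil3 and Pycrl have a group with 1 library, whose spread is taken from the other groups. The 3 genes with a positive difference encode a proline enzyme, a C/EBP factor and a polyamine enzyme. Leaving out 1 library ended the calls of Cebpa and Jun in 8 of 12 refits each, for Cebpa with each of the 8 libraries of days 4 and 10. For Jun the 8 include the control libraries of day 5, which are outside this comparison. Without either of them the difference of Jun stayed at −0.41. That of Jun also ended without a filter and with the replicate block (limma, adjusted p = 0.0989 and 0.0582). The call of Pycrl ended without a filter (limma, adjusted p = 0.0652) and with only the groups compared fitted (0.0562). It also ended without Cdk9-DN library 2 of day 10. That library does not list Pycrl, and the difference stayed at 0.53, so only what limma shares across genes moved. That of Nfil3 ended without control library 1 of day 4 (limma, adjusted p = 0.0509) and without a filter (0.0530). That of Amd2 ended without control library 1 of day 4 or Cdk9-DN library 2 of day 10 (limma, adjusted p = 0.0515 and 0.0517) and with only the groups compared fitted (0.0525). Those of Alox15, Fosl2, Adora2b, Slc6a14 and Junb held under each alternative that gave a value.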

How the results depend on the processing

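The rises of Arg1 to day 10 kept their direction and passed the test under every alternative that gave a value. All of these use libraries of day 10, which also carry the difference for which Arg1 was chosen. They therefore do not make the test independent of that choice. From day 5 to day 10 the log2 changes were 4.42 to 5.31 (control) and 2.80 to 3.79 (Cdk9-DN). With only the groups compared fitted, their adjusted p by limma was 0.00230 (control) and 0.00385 (Cdk9-DN), far above those of the main fit. The changes from day 4 to day 5 passed the test under none. The filter of 6 libraries removes Arg1. With a pseudocount of 0.25 the Cdk9-DN difference of Arg1 was −0.69 at day 4 and −0.40 at day 5, since that scale compresses low values less. At days 3 to 5 the depth behind each Arg1 value is 3 to 13 implied fragments.

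Among the listed genes, the averaged effect called 1 higher without a filter and 0 to 2 with 1 library left out. It called 1 lower with the filter of 6 libraries, under which fewer genes are tested, and 2 to 3 with 1 library left out. At day 10, leaving out 1 library gave 3 to 7 higher and 7 to 10 lower, and fitting only the groups compared gave 1 and 5. Keeping only genes with 2 libraries in every group compared, chosen after seeing the data, left 3 of 7 higher and 6 of 9 lower at day 10, and 1 of 2 higher and 2 of 4 lower for the averaged effect. Single listed genes had 568 refits with 1 library left out that gave a value. Of these, 510 kept their call or lack of one, 50 lost it, 8 gained it and 0 reversed. The 568 include refits without a library that is outside the comparison or does not list the gene. There the difference could not change, as for Gamt at day 10, at 1.34 in all 7 refits. The 510 therefore overstate how stable the calls are. Of 399 other refits, 376 kept it, 21 lost it and 2 gained it. The cause was not tested.

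No pairing of libraries by replicate number was apparent: deviations of same-numbered libraries correlated by −0.16 to 0.10 over 3491 genes in 15 pairs of groups. These deviations come from 2 libraries per group, so the check cannot exclude a pairing. With a replicate block the averaged effect called 1 listed gene higher in place of 2 and 3 lower in place of 4, losing Tgfbr2 and Fosl2.

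Counts over all genes moved by over 1.5 times in several comparisons. Leaving out 1 library gave 324 to 416 for the averaged effect (585), 930 to 1540 for day 10 (1658), 1 to 9 for day 4 (2) and 9 to 19 for day 5 (10). From day 4 to day 5 it gave 37 to 267 in control cells (299) and 37 to 179 in Cdk9-DN cells (194), where the replicate block gave 155 and 88. Without a filter the counts were 18 for day 4, 24 for day 5, and 147 and 71 from day 4 to day 5 with the control vector and Cdk9-DN. With the filter of 6 libraries they were 0 for day 4, 3 for day 5 and 378 for the averaged effect. Fitting only the groups compared gave 16 and 23 for days 4 and 5, 456 for day 10, 31 and 70 for the changes from day 4 to day 5, and 1750, 1712, 1304 and 1329 for the 4 changes to day 10 (2885, 2907, 2019 and 2208). Calls from day 4 to day 10 split into 1639 higher and 1268 lower in control cells and 1423 and 785 in Cdk9-DN cells as deposited, and into 1204 and 1606, and 898 and 1087, with quantile normalization.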
